A study of Mus musculus with 6 samples.

Results

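The 35 genes described here encode the sensors of protein misfolding in the endoplasmic reticulum (ER) and the chaperones, disulfide-bond enzymes, degradation factors and translocation subunits that serve the ER. They were chosen by gene symbol from a fixed list of 35 names, and all 35 stood in the count table of 48397 genes. They comprise 6 genes for stress sensors and the transcription factor XBP1, 11 for chaperones and co-chaperones, 5 for disulfide bond formation, 9 for ER-associated degradation, and 4 for translocation and the ER membrane. Their RNA was measured in islets that had been taken from wild-type (C57B6) mice, left to recover overnight and then kept for 24 h with recombinant mouse prolactin at 500 ng/mL or with DMSO as control. Each condition had 3 libraries of polyadenylated RNA, and the labels call the cell type mixed. Whether the 3 libraries of a condition stem from different mice or cultures is not stated in the labels, and the p-values therefore cover the spread among these libraries, possibly a technical one.

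The unfolded protein response is the set of signals by which the ER adjusts its folding capacity to its load. IRE1 (Ern1), PERK (Eif2ak3) and ATF6 (Atf6) sense unfolded proteins in the ER lumen: IRE1 splices the Xbp1 messenger RNA, PERK slows translation and favours ATF4, and ATF6 is cut to release a transcription factor. Beta cells fold large amounts of proinsulin and depend on this system, and prolactin is a hormone to which they respond in pregnancy.

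In prolactin-treated islets the Ern1 transcript was higher than in control islets, while the chaperones, disulfide isomerases and most degradation genes differed by little in either direction. Of the 35 genes, all of which passed the filter on low counts, 1 rose (Ern1), 0 fell and 34 did not pass (edgeR quasi-likelihood test, Benjamini-Hochberg adjusted over 23924 genes, threshold 0.05). Across all genes tested, 0.652% were higher and 0.104% lower by the same rule, and a count of 1 among 35 is too small to be read against that background. At an unadjusted p under 0.05 there were 4 of the 35 (Ern1, Derl3, Edem1 and Sec61b, 11.4%, all higher), against 14.5% of all genes tested. The 3 prolactin libraries lay above the 3 control libraries for 8 of the 35 and below them for 1, against 11.3% and 10.4% of all genes. Log2 changes of 33 of the 35 were smaller than 0.25 in either direction, the exceptions being Ern1 and Derl3. For 32 of the 35 the 95% confidence interval lay within 0.5 of zero on that scale, with Ern1, Derl3 and the barely detected Ern2 as exceptions.

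**Figure D1:**
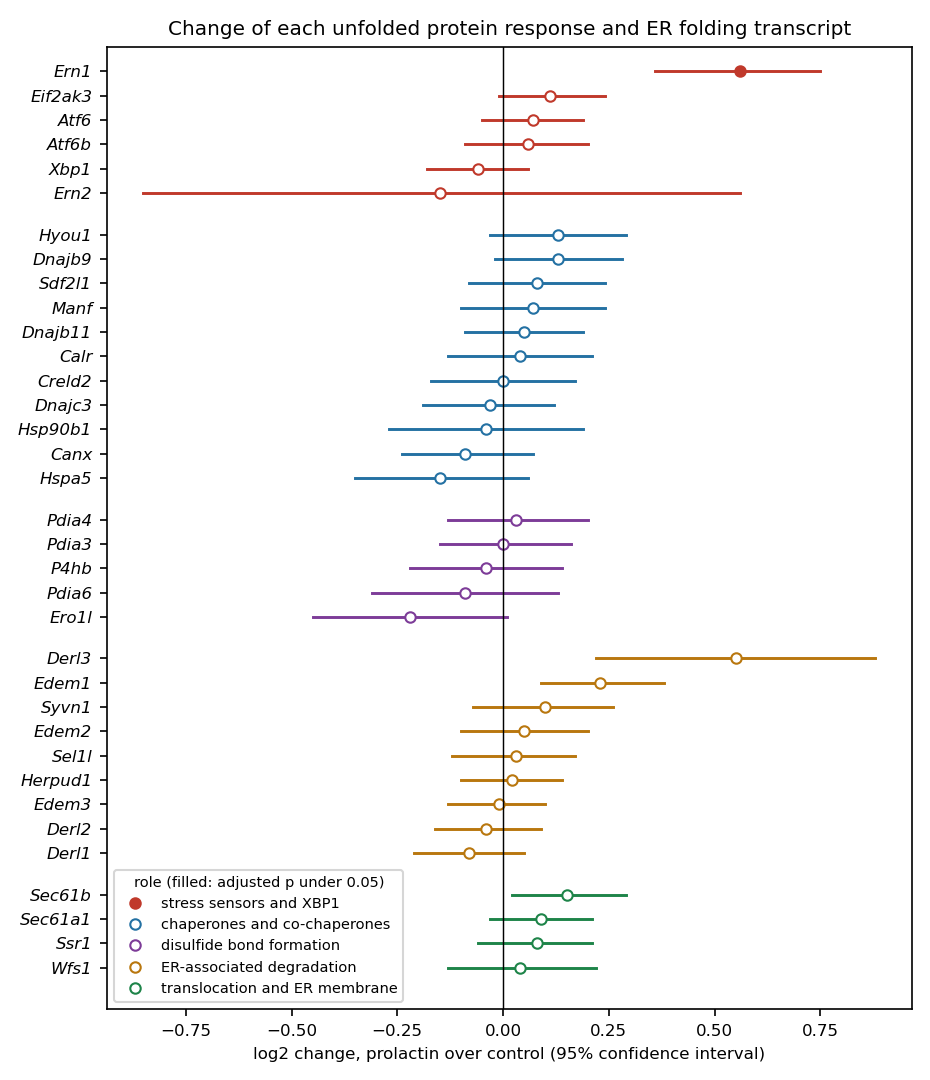
Log2 change of each transcript, prolactin over control, on the x axis with its 95% confidence interval, grouped by role and sorted within each role. The filled point is the gene with an adjusted p under 0.05. Ern1 at 0.56 stands to the right of the other sensors, and the 11 chaperone intervals cross zero.

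The libraries held 231247908, 230833584 and 264885071 counted reads in prolactin replicates 1, 2 and 3, and 530296257, 281202173 and 264466143 in control replicates 1, 2 and 3. Levels within a gene are given in CPM, computed on TMM-adjusted library totals. Levels of different genes are compared as RPKM, which divides CPM by the kilobases of exon. Beta-cell markers were abundant in both conditions: 10 markers summed to between 119100 and 124600 CPM with prolactin and between 117100 and 143600 CPM in control. Prolactin replicates 2 and 3 were closer to each other than other replicate pairs, with an SD of log2 ratios over genes of 0.0761, against 0.178 to 0.268 in the other pairs within a condition. Their counts differed by more than counting error on independent reads would give (chi-square of 8.34 per degree of freedom over genes, with a median gene at 3.76 times its expected value, against 107 to 289 and 12.1 to 43.9 in the other pairs). Counting both mates of a pair inflates these values, and they do not show that the libraries are separate biological samples. The labels list them as separate samples, and they were kept so, with the values for their sum given where a call depends on it.

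Among the stress sensors, Ern1 (chromosome 11, 106394650 to 106487852, mm10, minus strand), which encodes the kinase and endoribonuclease IRE1 alpha, had 483.4, 456.8 and 461.5 CPM in the prolactin libraries and 304.2, 287.1 and 361.2 CPM in the control libraries. The lowest prolactin library lay above the highest control library, control replicate 3, which stood apart from the other controls. The mean was 467.2 ± 14.2 CPM with prolactin and 317.5 ± 38.8 CPM in control (SD, n = 3 each), a 1.47-fold difference (log2 change 0.56, SE 0.087, 95% confidence interval 0.36 to 0.75, edgeR adjusted p = 0.0301). Between 77999 and 163348 reads per library lie behind these values, and 0 bases of its exons are shared with another counted gene. The log2 change stayed between 0.49 and 0.66 when each library was left out, but it passed the threshold in 1 of those 6 fits. That was the fit without control replicate 3 (edgeR adjusted p = 0.00364), in which 2.36% of all genes passed. Adjusted p was 0.0685 without control replicate 1, 0.0925 without control replicate 2, and 0.0916, 0.146 and 0.145 without prolactin replicate 1, 2 or 3. With prolactin replicates 2 and 3 summed as 1 library it was 0.154. In the authors' deposited table Ern1 has a log2 change of 0.56 (SE 0.089) with an adjusted p of 7.87e-08.

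**Figure D2:**
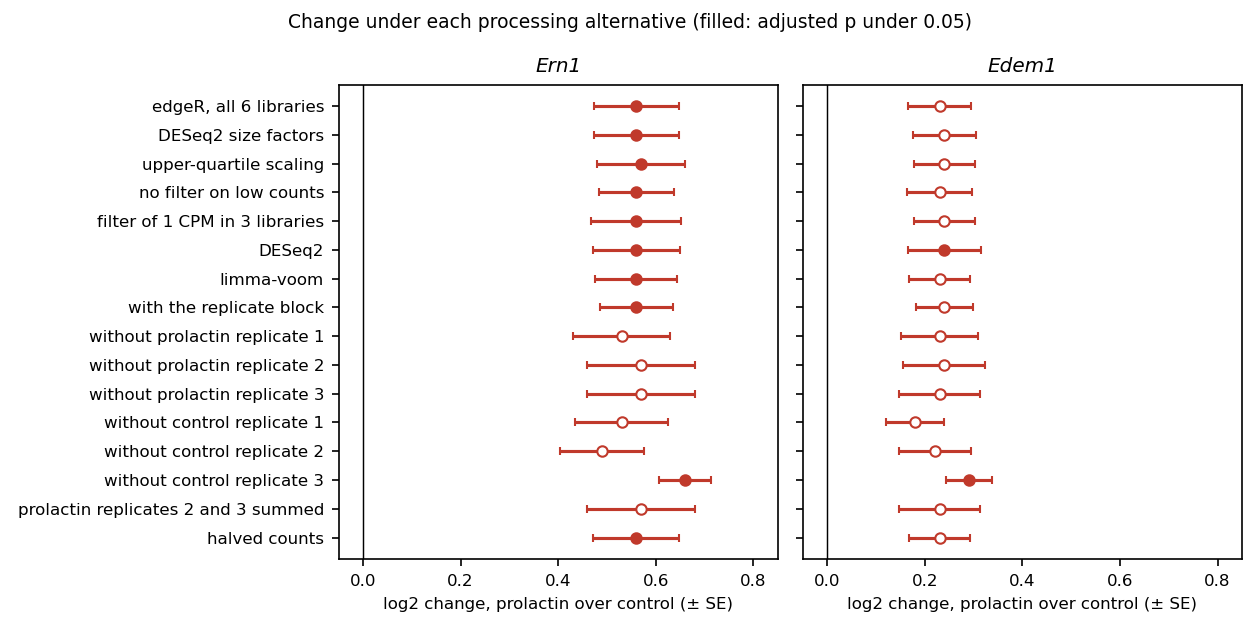
Log2 change ± SE of Ern1 (left) and Edem1 (right) on the x axis under edgeR with all 6 libraries and under each of 15 alternatives, with filled points where the adjusted p lies under 0.05. The size of the Ern1 change moves between 0.49 and 0.66, while its call is lost in the fits with fewer libraries other than the one without control replicate 3.

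In these bulk samples, fewer cells of a type and less RNA per cell cannot be told apart, nor can more cells and more RNA per cell. Stromal markers were higher with prolactin for 15 of 15 genes, with a summed level of 1131 to 1382 CPM, against 611.3 to 903.3 CPM in control. Endothelial markers were higher for 12 of 12 (397.3 to 407.2 CPM, against 341.3 to 389.2 CPM) and alpha-cell markers for 8 of 10 (35460 to 36760 CPM, against 23800 to 37830 CPM). Delta-cell and PP-cell markers were higher for 2 of 6 (5663 to 7024 CPM, against 8024 to 8488 CPM), beta-cell markers for 4 of 10, duct markers for 8 of 10, acinar markers for 1 of 20 and leukocyte markers for 6 of 15. No marker of these lists was at zero in all libraries. The part of these cell types in the Ern1 difference was not tested.

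The other sensor genes did not pass. Eif2ak3, which encodes the translation-slowing kinase PERK, had 104.7, 100.4 and 99.96 CPM with prolactin and 90.26, 92.81 and 99.02 CPM in control. These groups lay close together without overlapping (log2 change 0.11, 95% confidence interval -0.01 to 0.24, edgeR adjusted p = 0.388), and 8.05% of the exon bases of Eif2ak3 are shared with a locus on the opposite strand, from which unstranded counting cannot part its reads. Atf6 and its relative Atf6b, the membrane-bound transcription factors, had log2 changes of 0.07 and 0.06 with overlapping groups. Ern2, the gene of the epithelial form IRE1 beta, was barely detected, with 21, 17 and 20 reads in the prolactin libraries and 58, 19 and 22 in the control libraries. These are 0.09064, 0.0731 and 0.07553 CPM with prolactin and 0.108, 0.06994 and 0.0822 CPM in control. Its log2 change of -0.15 has a 95% confidence interval of -0.85 to 0.56. On the length-scaled level Ern1 reached 57.2 ± 1.74 RPKM with prolactin and 38.8 ± 4.75 RPKM in control, while Ern2 stood at 0.0269 and 0.0293 RPKM.

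IRE1 acts on the Xbp1 messenger RNA by cutting it at a pair of short stem-loops and removing the stretch between the cuts, after which the transcript encodes the active transcription factor. A pair of the loop motif CNGCAG at the right spacing was found in 3 protein-coding Xbp1 transcripts of GENCODE vM21. It is shown because Ern1 and Xbp1 are the enzyme and the substrate of this step. In 1 of the 3 transcripts the search also matched a second pair with the same spacing, further 5′, which is not printed. Capitals mark the motif copies, and the cut points of the copies lie 26 bases apart.
Xbp1 transcript: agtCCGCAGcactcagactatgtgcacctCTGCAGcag
The gene counts add up both forms of the transcript, so splicing was not measured. Xbp1 (chromosome 11, 5520659 to 5525893) had the highest length-scaled level of its group, 92.8 ± 2.59 RPKM with prolactin and 96.6 ± 0.406 RPKM in control. Its CPM were 311.0, 294.9 and 298.6 in the prolactin libraries and 315.4, 312.9 and 313.5 in the control libraries. All prolactin values lay just below all control values, by 0.06 on the log2 scale (95% confidence interval -0.18 to 0.06, edgeR adjusted p = 0.678). The ratio of Ern1 to Xbp1 RPKM within a library was 0.618, 0.616 and 0.614 with prolactin and 0.383, 0.365 and 0.458 in control. Likewise the ratio of Ern1 to Hspa5 was 0.114, 0.12 and 0.12 with prolactin and 0.0628, 0.0659 and 0.0914 in control. The mean ratio of Ern1 to Eif2ak3 was 3.39 with prolactin and 2.49 in control, and that of Ern1 to Atf6 was 2.54 and 1.81. These ratios restate the Ern1 difference against genes that did not pass the threshold.

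**Figure D3:**
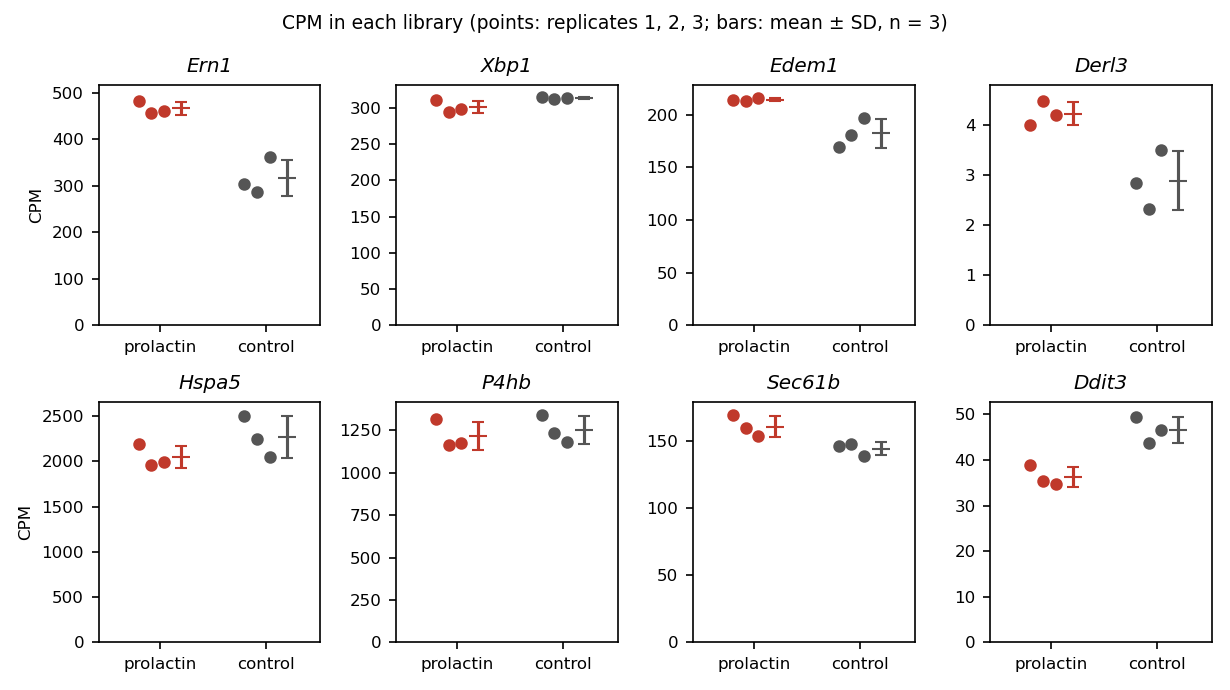
CPM on the y axis (from zero) of 8 genes in each prolactin library, on the left, and each control library, on the right, with the mean ± SD of 3 libraries beside the points. Ern1, Edem1, Derl3 and Sec61b are higher in every prolactin library than in any control library, Ddit3 and Xbp1 lower, and Hspa5 and P4hb overlap.

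The chaperones and co-chaperones bind nascent or unfolded proteins in the ER lumen and hold them until they fold. 0 of 11 passed in either direction, 6 changes were positive and 5 negative, and the median log2 change was 0.04, where the median of all genes tested was 0. No chaperone had an unadjusted p under 0.05 (14.5% of all genes did), 0 were called by DESeq2 (5.71% of all genes with an adjusted p) and 0 by limma-voom (0.74% of all genes). Hspa5 (chromosome 2, 34771970 to 34777547), the gene of the luminal HSP70 chaperone BiP, was the most abundant of the 35, with 485 ± 28.7 RPKM with prolactin and 536 ± 54.4 RPKM in control, where it ranked 42 among all genes. It had 2189, 1965 and 1995 CPM in the prolactin libraries and 2504, 2253 and 2044 CPM in the control libraries. The ranges overlapped, and replicate 1 was the highest library of each condition (log2 change -0.15, SE 0.091, 95% confidence interval -0.35 to 0.06, edgeR adjusted p = 0.518). Dnajb9, a BiP co-chaperone that also restrains IRE1, had the smallest p of the group: 351.3, 314 and 319.1 CPM with prolactin and 314, 300.1 and 287.6 CPM in control. These groups came close to touching (log2 change 0.13, edgeR adjusted p = 0.426). Hyou1, a nucleotide exchange factor of BiP, also had a log2 change of 0.13 (adjusted p = 0.446). The lectin chaperones Calr (0.04) and Canx (-0.09), the HSP90 of the ER, Hsp90b1 (-0.04), the J-domain proteins Dnajb11 (0.05) and Dnajc3 (-0.03), and Sdf2l1 (0.08), Creld2 (0.00) and Manf (0.07), which are induced by ER stress in many cells, had log2 changes between -0.09 and 0.08. For Hsp90b1, 15.7% of the exon bases are shared with other counted genes, and for Manf 9.25%.

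A feature that some of these genes share is the ER stress response element (ERSE), to which ATF6 and the CCAAT-binding factor NF-Y are known to bind. The motif, CCAAT and CCACG with any 9 bases between them, was searched on both strands from 250 bases before to 50 bases after the RefSeq start of each gene (build GRCm38.p6). RefSeq's table held a promoter for 29 of the 35, all but Ern2, Atf6, Hyou1, Manf, Derl1 and Sec61a1. The motif was present in 9 of the 29 (31.0%) and in 37 of 27025 genes overall (0.137%). The members were chosen as genes of the unfolded protein response, in which ATF6 acts, so these shares are not an independent comparison. Of the 9, 6 are chaperones or co-chaperones, 2 are degradation genes (Derl3 and Syvn1) and 1 is a disulfide isomerase (Pdia6), while 0 of the 4 sensor and XBP1 genes and 0 of the 3 translocation and membrane genes with a promoter sequence hold it. The matches are printed CCAAT first on the strand named, with the fixed letters in capitals, and Hsp90b1 has 2.
Hspa5 (chr2:34772025-34772043, plus strand): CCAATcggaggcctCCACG
Calr (chr8:84847075-84847093, plus strand): CCAATgagggtcgaCCACG
Derl3 (chr10:75893242-75893260, minus strand): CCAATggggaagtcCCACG
Hsp90b1 (chr10:86705638-86705656, minus strand): CCAATcgcaaggagCCACG
Hsp90b1 (chr10:86705533-86705551, plus strand): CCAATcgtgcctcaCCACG
Canx (chr11:50325800-50325818, minus strand): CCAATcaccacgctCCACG
Pdia6 (chr12:17266491-17266509, plus strand): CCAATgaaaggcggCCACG
Dnajc3 (chr14:118937827-118937845, plus strand): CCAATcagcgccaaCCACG
Creld2 (chr15:88819520-88819538, minus strand): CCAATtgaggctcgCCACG
Syvn1 (chr19:6046532-6046550, plus strand): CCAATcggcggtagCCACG
The related ERSE-II motif, ATTGG and CCACG with any 1 base between them, was found in Dnajb11 and Herpud1 (0.0444% of all genes have it), the motif TGACGTGG in 0 of 29 (0.714% overall), and the STAT-type motif TTCNNNGAA in Edem2 and Eif2ak3 (2 of 29, 6.9%, against 9.55% overall). ERSE and ERSE-II matches fell in different genes. These are matches of letters, and occupancy by a factor was not measured. The 9 genes with an ERSE had a median log2 change of -0.03 (range -0.15 to 0.55), and the 20 without one a median of 0.04 (range -0.22 to 0.56).

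The Hspa5 promoter (chr2:34771840-34772139, plus strand) is shown as the model case of the element, which is in capitals and ends 46 bases before the start.
Hspa5: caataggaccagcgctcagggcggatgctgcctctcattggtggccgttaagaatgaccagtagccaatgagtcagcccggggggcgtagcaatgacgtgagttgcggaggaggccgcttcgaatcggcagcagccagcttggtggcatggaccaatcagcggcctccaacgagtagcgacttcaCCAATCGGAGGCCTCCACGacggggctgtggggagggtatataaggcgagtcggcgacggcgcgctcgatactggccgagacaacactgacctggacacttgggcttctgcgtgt
The Ern1 promoter (chr11:106487747-106488046, minus strand) is shown beside it because Ern1 is the gene that rose. It held none of the 4 motifs, and its capitals mark the 1 copy of CCACG, with 0 copies of CCAAT on either strand.
Ern1: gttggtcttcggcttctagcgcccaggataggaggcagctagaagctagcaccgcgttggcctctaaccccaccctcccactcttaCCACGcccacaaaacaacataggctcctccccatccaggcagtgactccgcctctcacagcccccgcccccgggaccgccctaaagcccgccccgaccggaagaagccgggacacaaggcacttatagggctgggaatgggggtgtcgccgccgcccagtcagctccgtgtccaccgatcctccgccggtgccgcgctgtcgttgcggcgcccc

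Disulfide bonds in proinsulin and other cargo are made by ERO1 oxidases, of which only Ero1l is a member here, and the protein disulfide isomerases. 0 of the 5 genes passed in either direction, with a median log2 change of -0.04. P4hb, the isomerase PDI itself, was the most abundant of them, with 425 ± 29.8 RPKM with prolactin and 438 ± 28.5 RPKM in control, and had 1315, 1163 and 1174 CPM in the prolactin libraries and 1341, 1235 and 1180 CPM in the control libraries. The ranges overlapped (log2 change -0.04, 95% confidence interval -0.22 to 0.14, edgeR adjusted p = 0.860). Ero1l, the smallest-p gene of this group, had the lowest log2 change of the 35, with 103.7, 93.77 and 93.71 CPM with prolactin and 131.5, 97.17 and 110.3 CPM in control. Control replicate 1 was the highest library, and the groups overlapped (log2 change -0.22, SE 0.10, 95% confidence interval -0.45 to 0.01, edgeR adjusted p = 0.370). The related gene Ero1lb, from the list of other pathway genes, was more abundant. It had 150 RPKM with prolactin and 167 RPKM in control, against 22.0 and 25.6 RPKM for Ero1l. All its prolactin values lay below all control values, as for 10.4% of all genes (log2 change -0.15, SE 0.067, edgeR adjusted p = 0.341). The isomerases Pdia3, which works with Calr and Canx on glycoproteins, Pdia4 and Pdia6 had log2 changes of 0.00, 0.03 and -0.09.

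**Figure D4:**
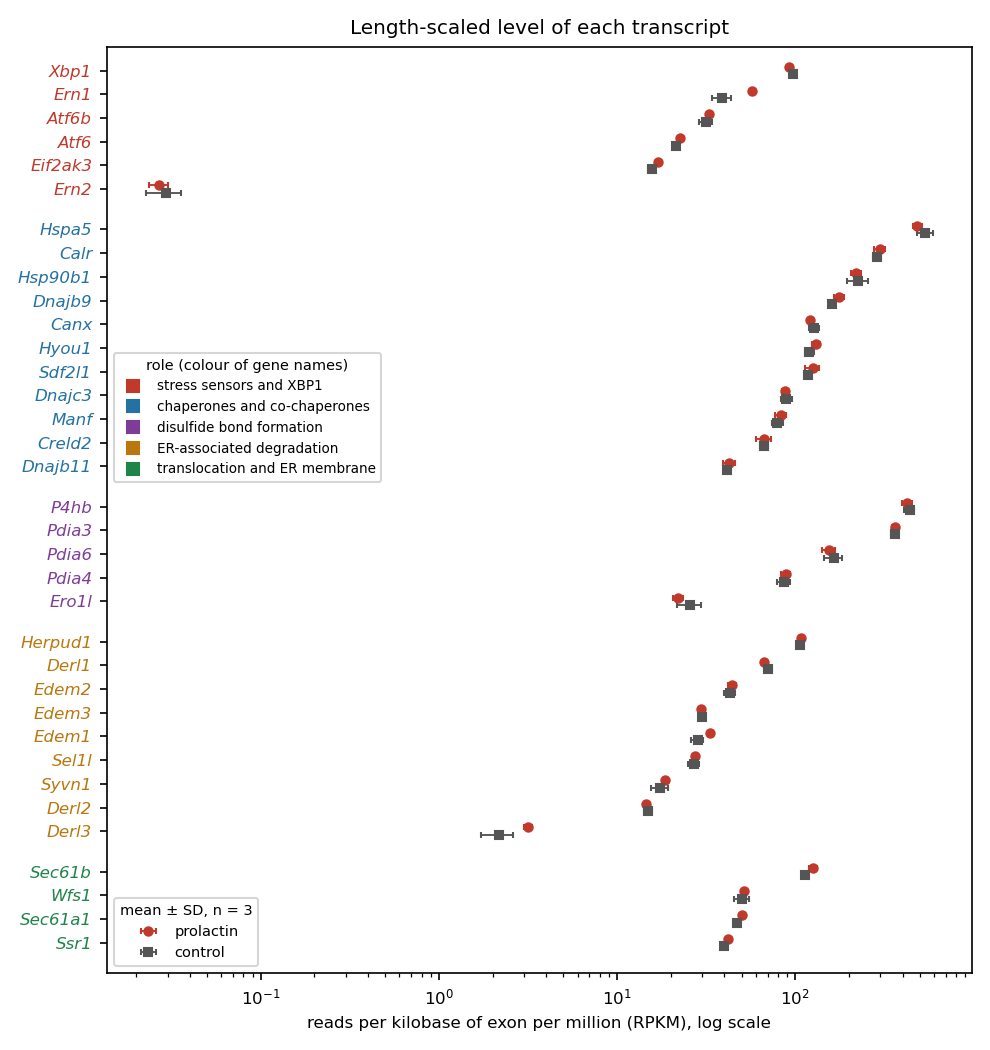
Length-scaled level (RPKM, log axis) of each transcript as the mean ± SD of 3 libraries, with prolactin drawn above control for each gene and genes grouped by role. Hspa5 and P4hb are the most abundant, Ern2 lies far to the left, and the paired points part visibly for Ern1, Edem1 and Derl3.

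ER-associated degradation takes misfolded proteins out of the ER to the proteasome. 0 of 9 genes passed, 6 changes were positive and 3 negative, and the median log2 change was 0.03 (0.07 without control replicate 3). Edem1, a lectin that hands misfolded glycoproteins to the degradation machinery and a known XBP1 target, had 214.4, 213.4 and 215.6 CPM in the prolactin libraries and 169.6, 180.6 and 197.1 CPM in the control libraries. Every prolactin library was above every control library, with a much smaller spread among the prolactin libraries (log2 change 0.23, SE 0.065, 95% confidence interval 0.09 to 0.38, edgeR adjusted p = 0.153). Derl3, a derlin of secretory cells, was the least abundant gene of the group at 3.17 RPKM with prolactin and 2.17 RPKM in control, with 4.005, 4.476 and 4.211 CPM in the prolactin libraries and 2.851, 2.323 and 3.505 CPM in the control libraries. The groups did not overlap (log2 change 0.55, SE 0.15, 95% confidence interval 0.22 to 0.88, edgeR adjusted p = 0.140). Edem1 and Derl3 both passed without control replicate 3 (adjusted p = 0.0366 and 0.0368), the fit in which 2.36% of all genes passed. In the authors' deposited table Edem1 has an adjusted p of 0.0349 and Derl3 of 0.00266, where 5.71% of the genes with an adjusted p lie under 0.05.

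The rest of the degradation genes lay closer to zero. Herpud1, a membrane scaffold and the most abundant of the group per length (107 ± 0.508 RPKM with prolactin and 106 ± 3.59 RPKM in control), had 251.9, 250 and 249.8 CPM in the prolactin libraries and 242.1, 241.7 and 256.4 CPM in the control libraries. The prolactin values lay inside the control range (log2 change 0.02, 95% confidence interval -0.10 to 0.14, edgeR adjusted p = 0.888). The ubiquitin ligase Syvn1 (HRD1) and its partner Sel1l had log2 changes of 0.10 and 0.03, the mannosidase-like Edem2 and Edem3 of 0.05 and -0.01, and the derlins Derl1 and Derl2 of -0.08 and -0.04. Derl1 has a pseudogene copy of at least 95% identity in GENCODE vM21, so its reads may be divided.

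The translocon carries new proteins into the ER. All 4 genes of translocation and the ER membrane had positive changes, none past the threshold, with a median log2 change of 0.08. Of all genes tested 50.1% had positive changes, and 4 genes are too few to be read against that share. Sec61b, a subunit of the SEC61 channel and the most abundant of them per length, had 168.8, 159 and 153.1 CPM in the prolactin libraries and 146.3, 147.4 and 138.4 CPM in the control libraries. The groups did not overlap (log2 change 0.15, SE 0.058, 95% confidence interval 0.02 to 0.29, edgeR adjusted p = 0.275), and 3 loci near-identical to Sec61b make its counts uncertain. The channel's main subunit Sec61a1 (log2 change 0.09) and the translocon-associated Ssr1 (0.08) were also higher in every prolactin library than in any control library. The same held for 11.3% of all genes. For Sec61a1, 8.16% of the exon bases are shared with a locus on the opposite strand. Wfs1, the gene of the ER membrane protein wolframin, whose loss causes diabetes in people, had a log2 change of 0.04 with overlapping groups.

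Set side by side, median log2 changes were 0.06 for sensors and XBP1, 0.04 for chaperones, -0.04 for disulfide bond genes, 0.03 for degradation genes and 0.08 for translocation and membrane genes. For the folding genes the difference between the conditions in mean log2 CPM was smaller than the spread between libraries of a condition: 0.02 with an SD of 0.0766 for the chaperones, and -0.06 with an SD of 0.106 for the disulfide group. For the translocation group it was 0.09 with an SD of 0.0258, and for the sensors and XBP1, Ern1 among them, 0.12 with an SD of 0.0403. For the degradation genes it was 0.09 with an SD of 0.0395. Derl3 (log2 change 0.55) and Edem1 (0.23) were the largest changes of that group, whose median log2 change was 0.03. The mean log2 CPM of the disulfide group stood 0.07, -0.08 and -0.08 from its overall mean in prolactin replicates 1, 2 and 3, and 0.17, -0.02 and -0.06 in control replicates 1, 2 and 3. That of the chaperones stood at 0.11, -0.04 and -0.04 in the prolactin libraries and at 0.06, -0.03 and -0.06 in the control libraries. Replicate 1 was the highest library of both conditions for 5 of 5 disulfide genes and 7 of 11 chaperones, but for 1 of 9 degradation genes, 1 of 4 translocation and membrane genes and 2 of 6 sensor genes, against 16.2% of all genes tested. Acinar markers, whose summed level ran from 1021 to 2191 CPM with prolactin and from 617 to 3374 CPM in control, were highest in prolactin replicate 1 and in control replicate 3. The summed stromal markers were highest in replicate 1 of both conditions (1382 CPM with prolactin and 903.3 CPM in control). So were the sums of duct markers (1824 and 1579 CPM), alpha-cell markers (36760 and 37830 CPM) and delta-cell and PP-cell markers (7024 and 8488 CPM). The beta-cell sum was lowest in replicate 1 of both conditions (119100 and 117100 CPM). The part of any of these cell types in the folding genes was not tested.

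**Figure D5:**
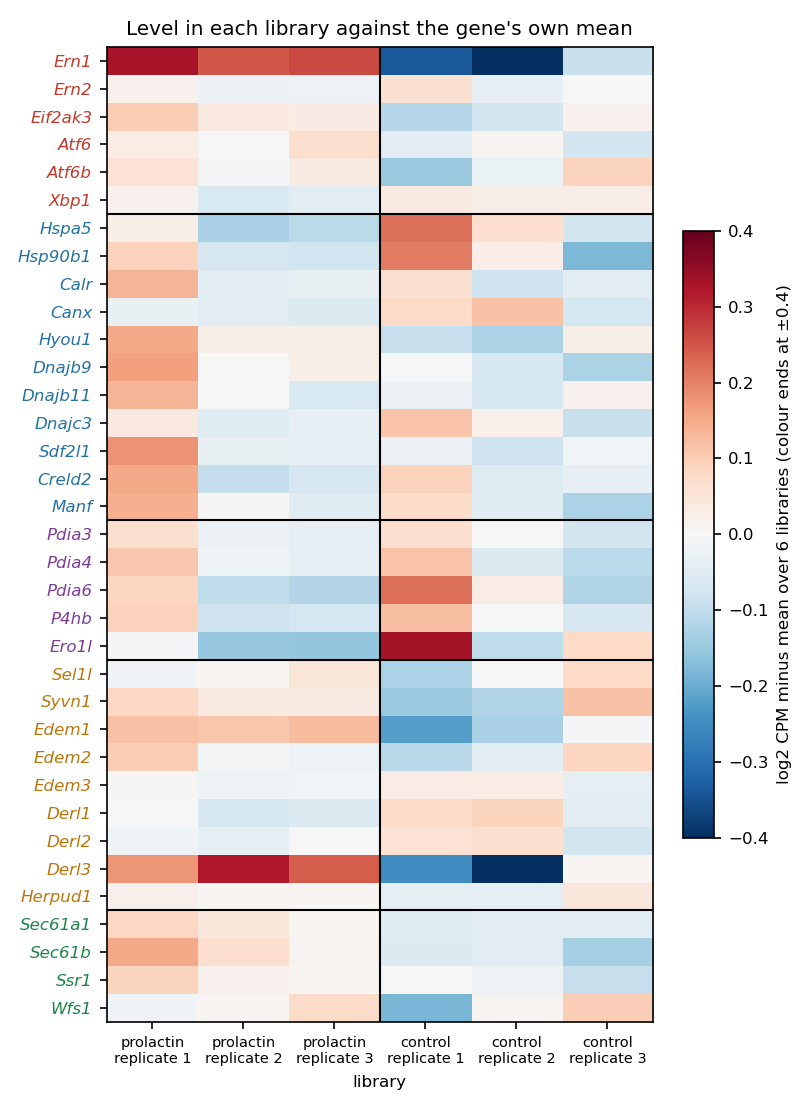
Colour shows log2 CPM of each gene in each library minus the gene's mean over the 6 libraries, with prolactin libraries on the left, control libraries on the right and genes grouped by role. The 5 disulfide genes are highest in replicate 1 of each condition, while Ern1, Edem1 and Derl3 split by treatment.

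Other genes of the pathway were taken from a list of 95 that holds no member, of which 93 passed the filter on low counts. 0 of 93 rose or fell in edgeR's test, 11 had an unadjusted p under 0.05 (11.8%, against 14.5% of all genes), 4 were called by DESeq2 (Ddit3 lower, Creb3l1, Fkbp11 and the collagen chaperone gene Serpinh1 higher), where 5.71% of all genes with an adjusted p were, and the median log2 change was 0.01. The nearest to the threshold was Ddit3, which encodes CHOP, the pro-death factor downstream of PERK and ATF4. It had 38.81, 35.48 and 34.66 CPM in the prolactin libraries and 49.46, 43.79 and 46.57 CPM in the control libraries. All prolactin values lay below all control values (log2 change -0.36, SE 0.066, 95% confidence interval -0.51 to -0.21, edgeR adjusted p = 0.0501), and the Ddit3 exons share 4.73% of their bases with genes on the opposite strand. Ddit3 passed with DESeq2, with no filter on low counts (1.46% of all genes then passed) and with the replicate number as a block. It also passed without control replicate 3 (edgeR adjusted p = 0.049, where 2.36% of all genes passed). Its adjusted p without 1 library otherwise ran from 0.0666 to 0.264. Among stress sensing genes, Creb3l1, a membrane-bound factor that favours collagen secretion, had a log2 change of 0.36 (edgeR adjusted p = 0.134).

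Among 28 other folding genes, the BiP exchange factor Sil1 differed by -0.19 on the log2 scale (edgeR adjusted p = 0.141) and the prolyl isomerase Fkbp11 by 0.35 (edgeR adjusted p = 0.185). Among 21 other degradation genes, none had an unadjusted p under 0.05, and Man1b1, an ER mannosidase, and Ube2j2, a ubiquitin-conjugating enzyme, had log2 changes of -0.11 and 0.11. Of 29 other translocation and glycosylation genes, 25 had positive changes (86.2%, against 50.1% of all genes tested), with a median of 0.03 on the log2 scale, and 2 had an unadjusted p under 0.05 (6.9%, against 14.5% of all genes). Tram2, a translocon-associated protein of collagen-making cells, differed by 0.23 on the log2 scale (edgeR adjusted p = 0.171) and Sec62, a translocon partner, by -0.16 (edgeR adjusted p = 0.340). Without control replicate 3, Sil1, Tram2 and Sec62 passed narrowly (edgeR adjusted p = 0.048, 0.0491 and 0.0484), in a fit where 2.36% of all genes passed. Without any other single library they did not, the lowest adjusted p being 0.214, 0.284 and 0.496. Creb3l1, Fkbp11, Serpinh1 and Tram2 were picked with their higher levels in prolactin known. That they share this direction with the 15 stromal markers is therefore no result, and 50.1% of all genes tested had positive changes. They did not in each case share the order of the libraries within a condition. Creb3l1 had 68.58, 73.34 and 74.88 CPM in the prolactin libraries and 47.8, 60.64 and 61.02 CPM in the control libraries, where the stromal sum was 1382, 1131 and 1138 CPM with prolactin and 903.3, 860.9 and 611.3 CPM in control. Serpinh1 had 121.4, 107.2 and 105.1 CPM with prolactin and 90.98, 90.64 and 60.5 CPM in control. Fkbp11 had 35.99, 28.69 and 28.77 CPM with prolactin and 27.55, 22.47 and 23.41 CPM in control. Tram2 had 13.11, 13.01 and 12.6 CPM with prolactin and 10.45, 10.74 and 11.78 CPM in control. The library of each condition with the highest stromal sum had the lowest Creb3l1 level and the highest Serpinh1 and Fkbp11 levels. Tram2 was highest in that library with prolactin and lowest in it in control. The part of stromal cells in these values was not tested.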

How the data were processed

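The authors deposited 1 table of whole-number read counts per gene for each of 6 libraries. Per the file headers, featureCounts 2.0.3 assigned reads to GENCODE vM10 genes, merged by name, with no strand option. The same headers request paired input without counting pairs; among counts from 1 to 20, 53.9% to 56.3% were even, and mates may have been counted singly. Per the submitters' processing notes the build was mm10, with SAMtools 1.21 and Subread 2.1.0. The sources used here do not give the aligner. The authors' deposited comparison gives log2 fold changes, p-values, a test score and, as a signal, each gene's mean, per the file headers. DESeq2 1.42.0 run here gave the same log2 changes for the members within 2.5e-07.

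edgeR 4.0.16 (R 4.3.3) was run on all genes with TMM scaling, its expression filter (minimum count 10, minimum total 15), a quasi-likelihood fit with condition as the only term, and two-sided tests with Benjamini-Hochberg adjustment over 23924 genes. SE and 95% intervals come from the test statistic. RPKM use the tables' exon lengths. The procedure was tested on simulated data. The members and lists were chosen with earlier results of these data known. Values per library are given for genes past the threshold, the most abundant and the smallest-p gene of each role, and the 3 highest and 3 lowest changes. Of the other pathway genes, the 2 smallest p per list are named, and genes named beyond these were chosen with their values known. List entries were matched by symbol, 1 of 95 pathway genes through a RefSeq synonym. Promoters are RefSeq's on GRCm38.p6, the assembly of mm10. Alternatives were limma-voom (limma 3.58.1), DESeq2, other scalings and filters, a replicate block, fits without 1 library, summed replicates and halved counts.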

Additional observations from a re-analysis of the deposited data

How the results depend on the processing

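Leaving out each library in turn gave 39 to 342 genes higher with prolactin and 1 to 234 lower (156 and 25 with all libraries), and 0 to 3 of the 35 genes higher. Among the other pathway genes it gave 0 to 1 higher and 0 to 3 lower. With no filter on low counts 470 genes were higher and 127 lower, with 2 of the 35 higher and 3 other pathway genes higher and 1 lower. With DESeq2 the counts were 776, 303, 3, 3 and 1 in the same order. A filter of 1 CPM in 3 libraries gave 46 genes lower. With prolactin replicates 2 and 3 summed, 42 genes were higher, 2 lower and 0 of the 35 higher. The causes were not tested. None of the 35 was called lower under any of the 15 alternatives, and 32 were called under none.

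The main fit did not pair the libraries by replicate number. Correlations of deviations from the condition mean were 0.464, 0.3 and -0.011 for same-number pairs of replicates 1, 2 and 3. For different numbers they ran from -0.398 to 0.356, the highest being prolactin replicate 3 with control replicate 2. Replicate 1 thus varied alike in both conditions, and replicate 3 did not. With the replicate number as a block, 464 genes were higher and 134 lower, with 1 of the 35 higher, 3 other pathway genes higher and 1 lower.

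Direction held for 22 of the 35 under every alternative run and reversed in at least 1 for 13. Over the fits without 1 library, the log2 changes of these ran between -0.27 and 0.07 (Ern2), 0.00 and 0.12 (Atf6b), -0.14 and 0.06 (Hsp90b1), -0.02 and 0.09 (Calr), -0.01 and 0.09 (Dnajb11), -0.08 and 0.02 (Dnajc3), -0.09 and 0.04 (Creld2), -0.03 and 0.04 (Pdia3), -0.02 and 0.10 (Pdia4), -0.17 and 0.00 (Pdia6), -0.10 and 0.01 (P4hb), -0.03 and 0.07 (Sel1l), and -0.03 and 0.11 (Wfs1). Creld2 was also 0.01 with upper-quartile scaling, 0.00 with the 1 CPM filter, and 0.04 with prolactin replicates 2 and 3 summed. Ern2 had at most 58 reads in a library, and its value is limited by that depth.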
